A study of Homo sapiens with 2 samples.

Results

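The transcripts described here encode the enzymes of the citric acid cycle, the pyruvate dehydrogenase complex and the reactions that feed or drain them. They are the 30 genes of a list put together by function, found by gene symbol among the 53737 genes of the deposited tables. All 30 were found, and 29 reached the minimum of 1 per-million unit in at least 1 library that a gene needed to be compared. Such genes are called tested, although no statistical test was possible. The exception, ME3, which encodes a mitochondrial malic enzyme, was listed at 0 in both. RNA came from the established cell line SK-ES-1, labelled as Ewing sarcoma of bone with the genotype WT in both groups. A single library of slow-cycling cells was compared with a single library of non-slow-cycling cells, to ask how the slowly dividing cells differ from the rest. How the slow-cycling cells were isolated is not given in the sources used here.

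The pyruvate carrier brings pyruvate into the mitochondrion, where the pyruvate dehydrogenase complex turns it into acetyl-CoA. Citrate synthase joins acetyl-CoA to oxaloacetate, and the cycle then oxidises citrate stepwise back to oxaloacetate, yielding NADH for respiration. Cycle acids also leave for the synthesis of lipids, aspartate and glutamate, which matters to growing tumour cells. Pyruvate carboxylase and glutamate dehydrogenase can refill the cycle.

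The 4 members with the lowest ratios between libraries are shown with their promoters, because they carry the largest differences below. Each sequence is the 250 bases before the annotated start, read 5′ to 3′ on the gene's strand, from RefSeq on GRCh38.p14. Capitals mark matches to any of 6 searched motifs.

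MPC1, chr6:166382941-166383190, minus strand: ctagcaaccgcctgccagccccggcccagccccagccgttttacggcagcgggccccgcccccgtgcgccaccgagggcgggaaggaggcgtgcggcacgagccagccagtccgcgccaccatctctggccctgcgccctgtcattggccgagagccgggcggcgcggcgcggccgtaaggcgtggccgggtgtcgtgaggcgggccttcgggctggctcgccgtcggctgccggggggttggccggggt
IDH3A, chr15:78149112-78149361, plus strand: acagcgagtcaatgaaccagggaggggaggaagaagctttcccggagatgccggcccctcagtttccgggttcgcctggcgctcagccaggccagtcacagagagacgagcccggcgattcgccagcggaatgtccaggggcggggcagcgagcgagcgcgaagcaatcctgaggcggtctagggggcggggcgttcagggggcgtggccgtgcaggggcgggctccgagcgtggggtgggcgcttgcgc
SUCLA2, chr13:48001274-48001523, minus strand: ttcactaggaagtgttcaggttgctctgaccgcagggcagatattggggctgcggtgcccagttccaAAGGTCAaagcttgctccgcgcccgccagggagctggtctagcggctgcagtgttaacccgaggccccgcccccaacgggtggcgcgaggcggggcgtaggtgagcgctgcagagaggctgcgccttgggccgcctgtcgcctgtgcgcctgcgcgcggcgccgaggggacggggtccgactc
IDH3B, chr20:2664217-2664466, minus strand: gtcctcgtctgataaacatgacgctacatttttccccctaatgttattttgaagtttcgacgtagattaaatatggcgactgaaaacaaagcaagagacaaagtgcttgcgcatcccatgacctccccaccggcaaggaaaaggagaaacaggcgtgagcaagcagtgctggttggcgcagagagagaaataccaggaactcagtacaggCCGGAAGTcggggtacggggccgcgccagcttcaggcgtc

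The capitals in the SUCLA2 sequence are a motif known from estrogen-related receptors, AAGGTCA. Those in the IDH3B sequence are a site of ETS factors such as GABPA, CCGGAAGT. The MPC1 and IDH3A windows held none of the 6 motifs. RefSeq windows of 300 bases, from 250 before to 50 after the start, were at hand for 29 members and not for OGDH. On either strand the ETS site was in 3 of these 29 (DLST, IDH3B and MDH2), or 10.3%, against 4.44% of all 27305 windows and 9.41% of 9774 windows of tested protein-coding genes. The hypoxia response core ACGTG was in 7 members, or 24.1%, against 21.6% and 27.2%. The E-box CACGTG, which contains that core, was in ME3 and PDHB, or 6.90% of members, against 7.43% of all windows and 10.5% of those of tested protein-coding genes. The receptor motif AAGGTCA was in SUCLA2 alone among the members, against 3.97% and 2.42%. The NRF1 core CGCATGCG and the CREB site TGACGTCA were in none of the 29, and were in 2.19% and 1.98% of all windows and in 4.15% and 3.49% of those of tested protein-coding genes. Such matches describe letters and not binding.

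Levels are in per-million units, obtained from the deposited log2 values. Wherever a pair of levels is given, the slow-cycling library comes first. Ratios are differences of log2(level + 1), slow-cycling minus non-slow-cycling, a scale that understates differences of low genes. Whether the unit is scaled to transcript length could not be settled, so the level of a single gene is compared between libraries and not with other genes. The bins and ranges of level, the correlation with level and the summed levels do set genes side by side, and depend on that scaling. Since each group had a single library, no difference could be set against replicate error and no p-value was computed. In bulk RNA, fewer cells with a transcript and less of it per cell cannot be told apart.

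Transcripts of the cycle were slightly and broadly lower in the slow-cycling library. Of the 29 tested members, 26 had a ratio below 0, FH and GLUD1 among them at less than the rounding used here, against 43.8% of all 13444 tested genes. The median log2 ratio of the members was -0.13, beside 0.03 for all tested genes. At least 1.2-fold lower were 3 members, MPC1, IDH3A and SUCLA2, where the background was 7.59% of tested genes. None was at least 1.2-fold higher, a difference seen in 17.4% of tested genes. No member differed by 1.5-fold in either direction, as 5.38% of tested genes did upwards and 1.41% downwards. The pattern is therefore one of many small differences of like sign rather than of a few large ones.

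The members are well-expressed genes, with levels from 12.4 to 412 units, and across all tested genes the median ratio declined from 0.43 in the lowest to -0.09 in the highest of 20 bins of level. Among the 8255 tested genes within the members' range of mean level, 49.7% had a ratio below 0 and 50.3% above, and the median was 0.00. Of those genes 5.73% were at least 1.2-fold lower and 7.74% at least 1.2-fold higher. The interquartile range of the members' ratios was -0.19 to -0.06, and that of the genes of like level from -0.11 to 0.12. When the median of genes of similar level was subtracted from each ratio, in those bins, 25 of the 29 members were below 0 and their median was -0.08. The summed level of the members was 2879 units among slow-cycling and 3158 among non-slow-cycling cells, a difference of -8.84%.

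**Figure D1:**
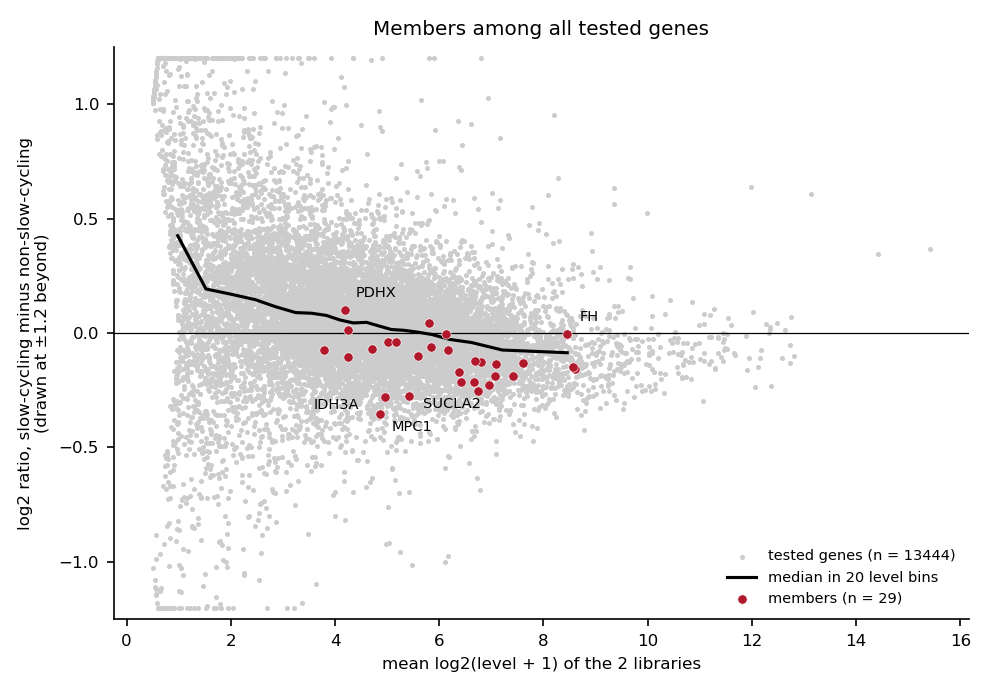
Log2 ratio between the libraries against the mean log2(level + 1) of each of 13444 tested genes (grey), with the median in 20 bins of level (line) and the 29 tested members (red). Most members, 25 of 29, lie below the line, and MPC1, IDH3A and SUCLA2 lie lowest.

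The subunits of the pyruvate carrier differed unequally. MPC1, which encodes one subunit of the mitochondrial pyruvate carrier (chromosome 6, 166364919 to 166382940), was at 24.6 units in slow-cycling cells and 31.7 in the others. That ratio of -0.35 was the lowest of the 29, and 4.05% of tested genes had a lower one. MPC2, the partner subunit with which MPC1 forms the working carrier, was at 31.0 and 31.9, a ratio of -0.04. The difference between the 2 subunits' ratios was -0.32.

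The pyruvate dehydrogenase complex was lower in 4 of its 5 members, beside 43.8% of all tested genes with a ratio below 0. PDHB, the beta subunit of the decarboxylating E1 component, was at 114 and 134, a ratio of -0.23. PDHA1, the alpha subunit of E1 and the site of the regulatory phosphorylation, was at 78.1 and 90.8, a ratio of -0.21. The 2 subunits of E1 thus differed to nearly the same extent.

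DLD, the E3 component that is shared with the 2-oxoglutarate dehydrogenase complex, was at 106 and 115, a ratio of -0.13. DLAT, the acetyl-transferring E2 core, was at 45.3 and 48.6, a ratio of -0.10. PDHX, which anchors E3 to that core, was the exception at 17.9 and 16.6. Its ratio of 0.10 was the highest of all 29 members, and 62.6% of tested genes had a lower one.

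**Figure D2:**
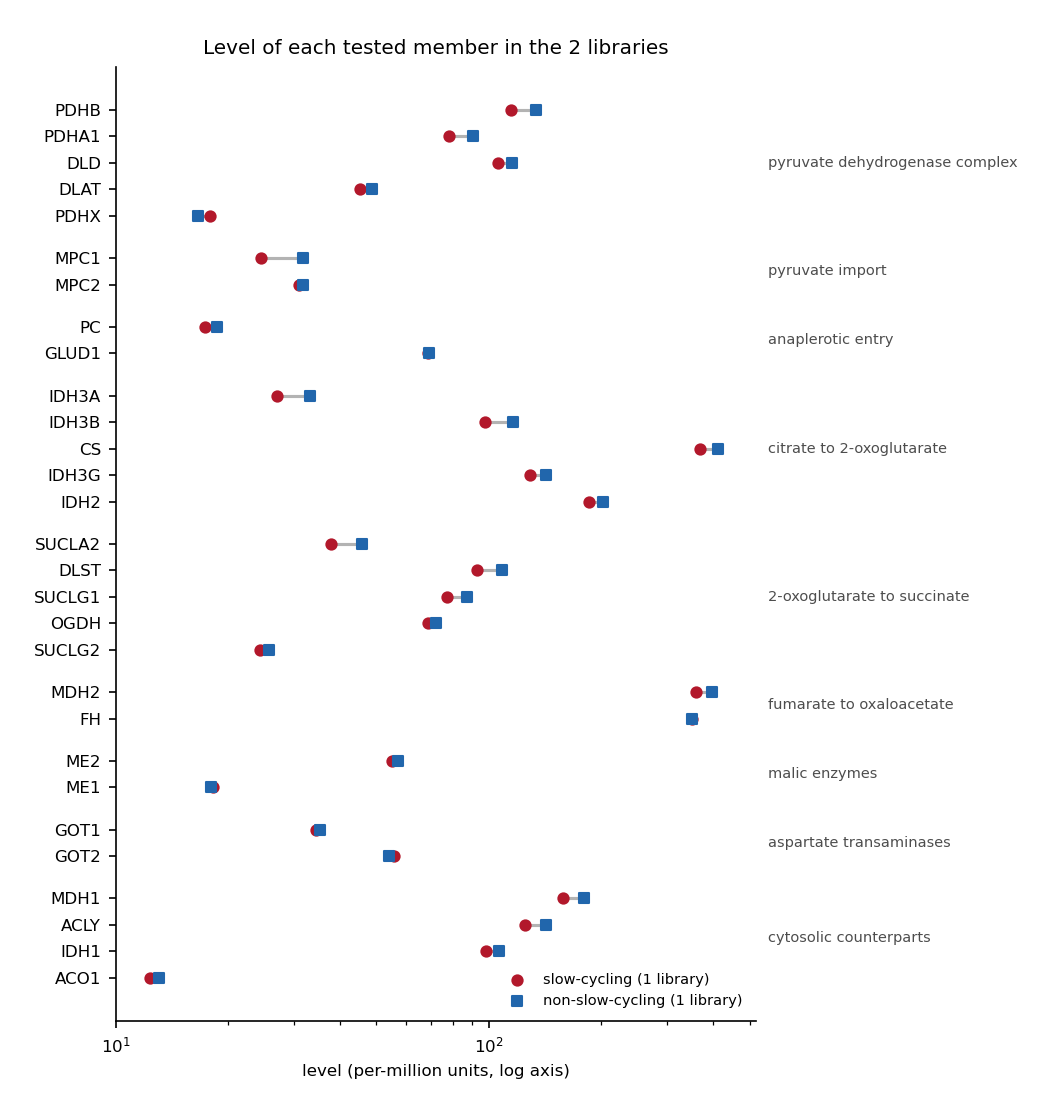
Level of each tested member in the slow-cycling (red circles) and non-slow-cycling (blue squares) library, in per-million units on a log axis, grouped by step. The slow-cycling value is the lower one for 26 of the 29 genes; positions of different genes are not to be compared with each other.

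The enzymes from citrate to 2-oxoglutarate were lower in 5 of 5, with a median of -0.16. Of all tested genes 43.8% had a ratio below 0, and of those within the members' range of mean level 49.7%. IDH3A, the catalytic subunit of the NAD-dependent isocitrate dehydrogenase of the cycle (chromosome 15, 78149362 to 78171945), was at 27.2 units against 33.2, a ratio of -0.28. Its partner IDH3B (chromosome 20, 2658395 to 2664216) was at 97.5 and 116, a ratio of -0.25, just short of the 1.2-fold line. The third subunit, IDH3G, was at 129 and 142, a ratio of -0.14. All 3 subunits of the enzyme were lower in the slow-cycling library, beside the same 43.8% of all tested genes.

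CS, citrate synthase, the entry step of the cycle, was at 369 and 412, a ratio of -0.16. IDH2, the NADP-dependent mitochondrial isocitrate dehydrogenase, was at 185 and 203, a ratio of -0.13.

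From 2-oxoglutarate to succinate all 5 members were lower as well, with a median of -0.17, beside 43.8% of all tested genes below 0. SUCLA2, the subunit that makes succinyl-CoA ligase form ATP (chromosome 13, 47942656 to 48001273), was at 37.7 and 45.8, a ratio of -0.27. SUCLG2, which takes its place in the GTP-forming enzyme, was at 24.5 and 25.7, a ratio of -0.07. SUCLG1, the alpha subunit common to both forms, was at 77.5 and 87.4, a ratio of -0.17, between those of its alternative partners. The ratio of SUCLA2 minus that of SUCLG2 was -0.20.

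Within the 2-oxoglutarate dehydrogenase complex, DLST, the succinyl-transferring E2 core, was at 93.1 and 108, a ratio of -0.22. OGDH, the decarboxylating E1 component, was at 68.6 and 72.4, a ratio of -0.08. The core of this complex therefore differed more than its E1, the reverse of the order in the pyruvate dehydrogenase complex, where E1 was lower than DLAT.

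The last steps of the cycle parted. MDH2, the mitochondrial malate dehydrogenase that regenerates oxaloacetate, was at 359 and 397, a ratio of -0.15. FH, fumarate hydratase, was at 349.9 and 350.6, a ratio of 0.00 at this rounding. Subtracting the median of genes of similar level put FH at 0.08, so its sign depends on that choice.

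**Figure D3:**
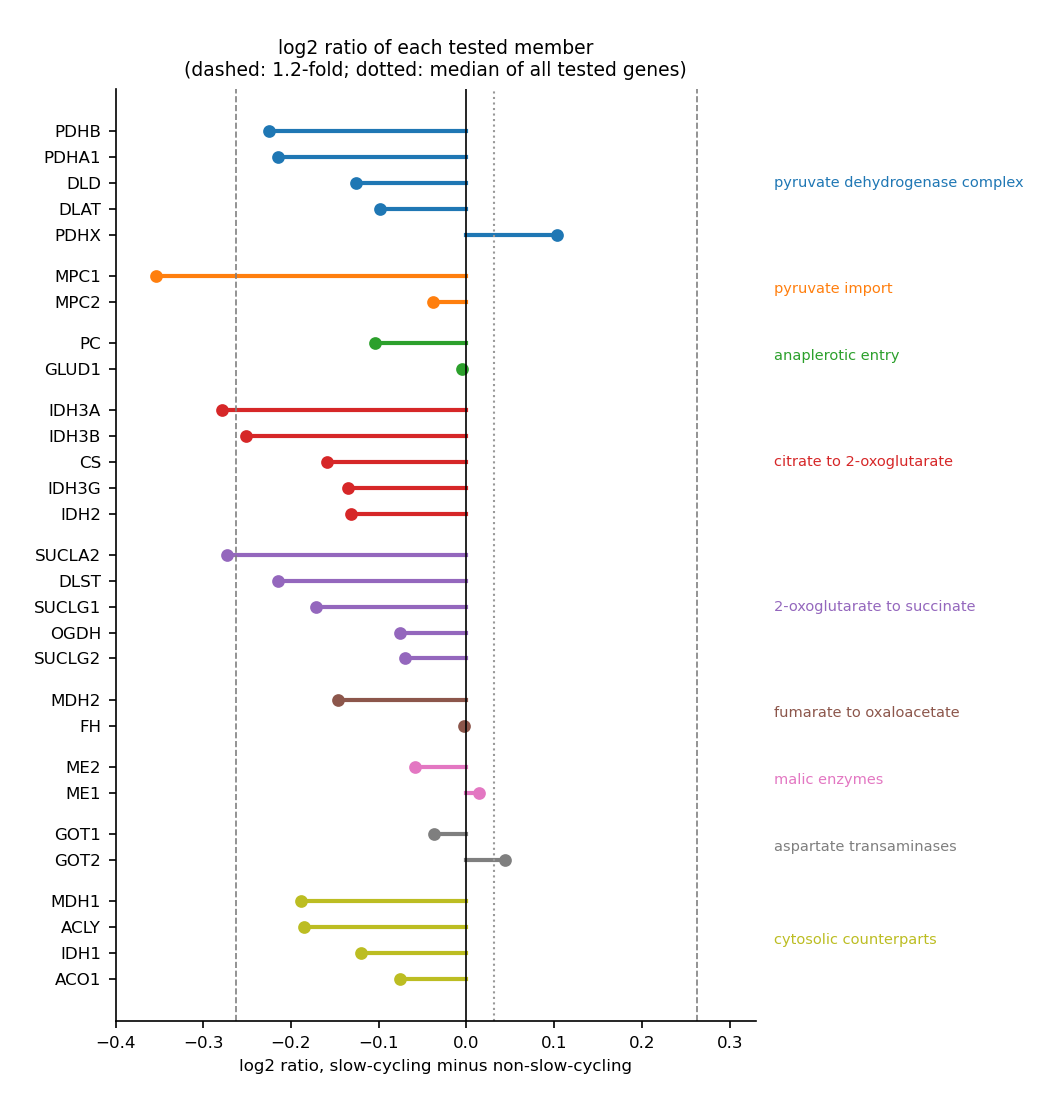
Log2 ratio of each of the 29 tested members, slow-cycling minus non-slow-cycling, coloured by step, with dashed lines at 1.2-fold and a dotted line at the median of all tested genes. Only MPC1, IDH3A and SUCLA2 pass the lower dashed line, and PDHX, GOT2 and ME1 lie above 0.

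The refilling and draining reactions had medians near 0, each over 2 tested genes. These were -0.05 for anaplerotic entry, -0.02 for the malic enzymes and 0.00 for the aspartate transaminases. PC, pyruvate carboxylase, which makes oxaloacetate directly from pyruvate, was at 17.4 and 18.7, a ratio of -0.10. Against genes of similar level PC was at -0.15, further below than the members' median of -0.08. GLUD1, glutamate dehydrogenase, was at 68.8 and 69.0, a ratio of 0.00 at this rounding that became 0.02 against genes of similar level. Reads of GLUD1 can also be shared with its 6 listed pseudogenes, of which 1 was above 0. GOT2, the mitochondrial aspartate transaminase of the malate-aspartate shuttle, was at 55.8 and 54.1, a ratio of 0.04.

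GOT1, its cytosolic counterpart, was at 34.3 and 35.3, a ratio of -0.04. ME2, the NAD-linked mitochondrial malic enzyme, was at 54.9 and 57.2, a ratio of -0.06. ME1, the cytosolic malic enzyme that yields NADPH, was at 18.2 and 18.0, a ratio of 0.01 that was below 0 in 4 of 6 alternative treatments of the ratios. None of the 4 transaminase and malic enzyme genes with a level differed by 1.1-fold.

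The 4 cytosolic enzymes around exported citrate and malate were lower, with a median of -0.15, beside 43.8% of all tested genes below 0. ACLY, ATP citrate lyase, which splits citrate into the acetyl-CoA used for lipid synthesis, was at 125 and 143, a ratio of -0.19. MDH1, cytosolic malate dehydrogenase, was at 158 and 180, also -0.19. IDH1, the cytosolic NADP-dependent isocitrate dehydrogenase, was at 98.2 and 107, a ratio of -0.12 that lay 0.01 above that of its mitochondrial relative IDH2.

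ACO1, the cytosolic aconitase that becomes an iron-regulatory protein when its iron-sulfur cluster is lost, was at 12.4 and 13.1, a ratio of -0.08. The 6 cytosolic members had a median of -0.10 and the 23 tested mitochondrial ones a median of -0.13, so both compartments lay on the same side of 0. Across the 29 members the ratio and the mean log2 level had a Spearman rho of -0.31, a description across genes that share the same 2 libraries.

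Other genes of the pathway were divided between directions. Of 49 listed genes that regulate, complete or border the cycle, 43 were tested, of which 23 had a ratio above 0 and 20 below, with a median of 0.03. At least 1.2-fold higher were 7 and at least 1.2-fold lower were 3, counts to be read against the 17.4% and 7.59% of all tested genes. The 7 genes that switch the pyruvate dehydrogenase complex off and on had a median of 0.18, with 5 above 0, beside 56.2% of all tested genes. Against genes of similar level 4 of the 7 were above 0, with a median of 0.09.

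PDK1, a kinase that inactivates the complex by phosphorylating PDHA1 and is a textbook target of hypoxia-inducible factor, was at 29.2 and 19.4, a ratio of 0.57. PDK3 was at 7.70 and 6.12, a ratio of 0.29, while PDK2 was at 17.5 and 19.9, a ratio of -0.18. PDK4, a kinase known for its rise in fasting, was near the minimum level at 0.432 and 1.07, a ratio of -0.53. The 4 kinases thus went both ways, with PDK1 the highest.

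On the activating side, the phosphatases PDP1, at 6.93 and 6.34, and PDP2, at 9.71 and 8.44, had ratios of 0.11 and 0.18. PDPR, the regulatory subunit of the phosphatase, was at 12.1 and 7.71, a ratio of 0.58. Both the inactivating and the activating arm thus held genes that were higher in the slow-cycling library, while 4 of 5 genes of the complex they act on were lower.

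**Figure D4:**
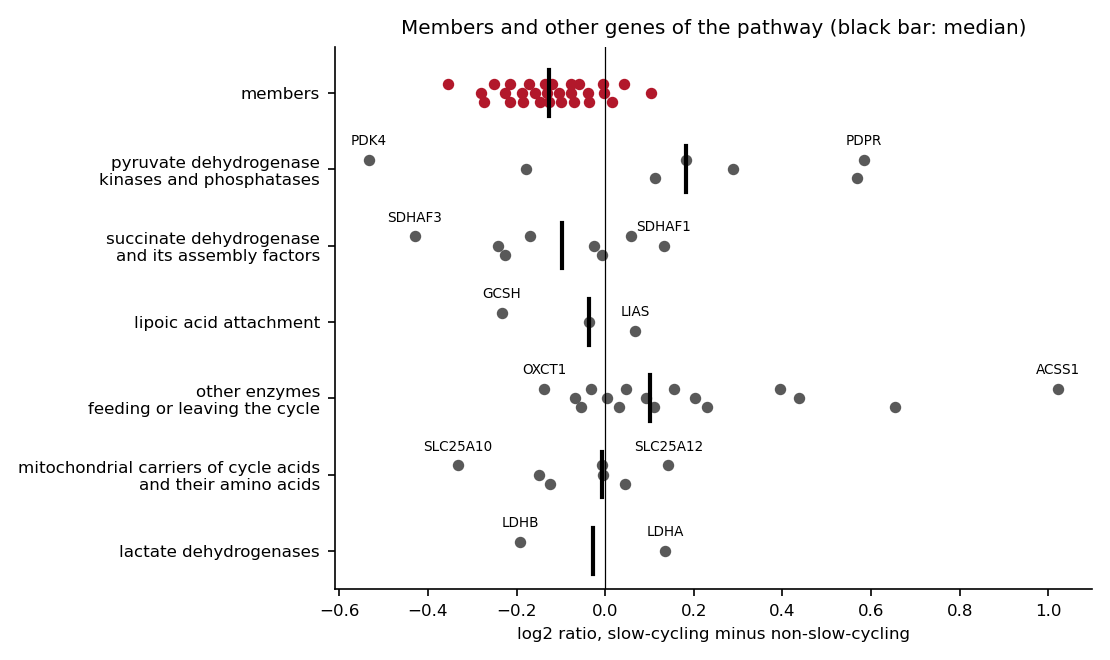
Log2 ratio of the 29 tested members (red) and of the 43 tested genes of 6 lists of other pathway genes (grey), slow-cycling minus non-slow-cycling, with black bars at the medians. The members sit mostly left of 0, the genes regulating pyruvate dehydrogenase spread from -0.53 to 0.58, and the highest and lowest gene of each list are named.

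Succinate dehydrogenase, the cycle enzyme that is also respiratory complex II, had all 4 subunits below 0, beside 43.8% of all tested genes. SDHB was at 234 and 276, a ratio of -0.24, SDHD at 88.5 and 104, a ratio of -0.23, and SDHA at 85.9 and 96.8, a ratio of -0.17. SDHC was at 68.3 and 69.5, a ratio of -0.03, the same at this rounding as the median of genes of similar level. Of the 4 assembly factors, SDHAF3 was lowest at 20.3 and 27.7, a ratio of -0.43, and SDHAF1 highest at 11.1 and 10.1, a ratio of 0.13. Against genes of similar level 3 of these 8 subunits and assembly factors were above 0, and their median was -0.07.

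Among the genes of lipoic acid attachment, on which DLAT and DLST depend, 3 of 4 were tested, with a median of -0.04. GCSH, a lipoyl-carrying protein of glycine cleavage, was at 33.3 and 39.3, a ratio of -0.23, and LIAS, lipoic acid synthase, at 17.2 and 16.4, a ratio of 0.07.

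Of the enzymes that border the cycle, 12 of 16 tested had a ratio above 0, beside 56.2% of all tested genes, with a median of 0.10. After subtraction of the median of genes of similar level 11 were above 0 and the median was 0.04. OGDHL, a relative of OGDH, was at 6.30 and 3.64, a ratio of 0.65, where OGDH itself was slightly lower. GLUD2, an intronless copy of GLUD1 so similar that reads can be split between them, was at 7.24 and 5.09, a ratio of 0.44. PCK2, which turns mitochondrial oxaloacetate into phosphoenolpyruvate, was at 6.96 and 5.06, a ratio of 0.39.

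ACSS1, mitochondrial acetyl-CoA synthetase, was at 1.19 and 0.0796, close to the minimum level, with a ratio of 1.02. OXCT1, an enzyme of ketone body use, had the lowest ratio of this list at -0.14, with levels of 42.2 and 46.5. The genes of this group that were at least 1.2-fold higher were OGDHL, GLUD2, PCK2 and ACSS1, none above 7.24 units, a range in which the median ratio of all tested genes was itself above 0.

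Carriers of cycle acids had a median of -0.01 over 7 tested genes. SLC25A10, the dicarboxylate carrier, was at 30.5 and 38.6, a ratio of -0.33, and SLC25A12, an aspartate-glutamate carrier, was highest at 11.1 and 9.94, a ratio of 0.14. The citrate carrier SLC25A1, which supplies ACLY, was at 90.1 and 87.3, a ratio of 0.05. At the other fate of pyruvate, LDHA, the lactate dehydrogenase subunit that favours lactate formation, was at 1942 and 1769, a ratio of 0.13, and LDHB, the subunit of oxidative tissues, at 1503 and 1716, a ratio of -0.19.

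The cell type label was checked with marker genes. All 8 Ewing sarcoma markers were above the minimum, among them CD99 at 213 and 245 and NKX2-2 at 99.3 and 111. Of these 8, 6 had a ratio below 0, beside 43.8% of all tested genes. Their median was -0.12 beside the members' -0.13. Against genes of similar level 3 of the 8 were above 0 and the median was -0.09. All 6 tested of 8 fibroblast markers had a ratio above 0, beside 56.2% of all tested genes, with a median of 0.35. At least 1.2-fold higher were 4 of them, beside 17.4% of all tested genes. Against genes of similar level all 6 were above 0, with a median of 0.26. COL1A1, at 3.19 and 1.15, and FAP, at 3.67 and 1.74, were at least 1.5-fold higher. The list's summed levels of 224 and 207 came mostly from COL1A2, at 144 and 139, while PDGFRA was listed at 0 and LUM was at 0.0175 and listed at 0. Of 8 blood and endothelial markers, 5 were listed at 0 in both libraries, PTPRC and PECAM1 among them, with summed levels of 11.1 and 7.38 for the list, mostly from LYZ at 8.45 and 6.66. The part of these markers in the members' ratios was not tested.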

How the data were processed

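RNA-seq of 2 libraries was used, 1 of slow-cycling and 1 of non-slow-cycling SK-ES-1 cells, made with a stranded mRNA kit per the labels' protocols. The submitters' processing notes name the build hg38; which aligner, counting tool and annotation were used is not given in the sources used here. The column headers read LRC and non-LRC, so groups were taken from the sample a table belongs to. The deposited values, called normalized per the file headers, were taken as log2 values with 1 added, since their back-transformed sums were 983638 and 984120. Read depth is unknown, so no counting interval was computed.

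Lines sharing an Entrez gene ID (174) were summed. Genes with at least 1 unit in 1 library or more were tested (13444). Counts used 1.2-fold and 1.5-fold differences of log2(level + 1). Python 3.11.15 with pandas 2.3.3 was used, and the counting was tested on simulated data. Gene spans and promoters came from RefSeq (GRCh38.p14), transcript lengths and overlaps from GENCODE 29. The 30 members, the lists of other pathway genes and the rules were chosen with earlier results of these data known. The plan was to name in full the 5 highest and 5 lowest members and those at least 1.2-fold apart. Levels and ratios are given for all 29 tested members. Alternatives changed the scaling, filter, pseudocount, gene class, thresholds and, added after seeing the data, transcript length and GC content. Single values of a few listed genes are not reported here, though the counts and sums of their lists include them.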

Additional observations from a re-analysis of the deposited data

How the results depend on the processing

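With 1 library per group no replicate could be left out, and no paired analysis was possible because each group has a single library. Across the 9 alternatives of scaling, level trend, filter, pseudocount, gene class, transcript length and GC content, between 25 and 27 of the 29 members had a ratio below 0, and their median log2 ratio lay between -0.16 and -0.08. Over mitochondrial members alone it was -0.13. The count at least 1.2-fold lower was 3 or 4 except after removal of the GC trend, where it was 6 against 9.17% of tested genes. Across these alternatives the share of tested genes that low ranged from 6.12% with protein-coding genes only to 11.03% with the level trend removed. With the level trend removed the count was 3 of 29, so the members did not exceed the background there. With the median of tested genes set to 0 the count was 4, against 9.67%. The members' count was 12 at a 1.1-fold threshold, which 19.4% of tested genes passed downwards, and 0 at a 1.3-fold threshold, which 3.51% passed. No member was at least 1.2-fold higher, or 1.5-fold apart, in any of these. Single members near 0 changed sign, namely ME1 in 4, FH in 1 and GLUD1 in 1 of 6 alternatives of scaling, trends and pseudocount. The absence of replicates limits every value, and unknown depth leaves the counting error of each level unmeasured.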

Other observations

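Genes on the opposite strand overlap 10 of the members and were themselves at 1 unit or more. The library kit marks strand, but whether the counting used it is not given in the sources used here, so reads of the overlaps cannot be told apart. LAMB1, a laminin chain whose gene overlaps DLD over 7932 bases, was at 142 units in slow-cycling cells and 118 in the others, opposite in direction to DLD. SSR4, a translocon-associated protein, overlaps IDH3G over 1008 bases and was at 326 and 334. IDH1-AS1, the antisense transcript that overlaps IDH1 over 935 bases, was at 0.898 and 3.08. Its level in slow-cycling cells was below the minimum of 1 unit, so its difference is not compared with that of IDH1. These overlaps were looked up after the members' values were seen, and their part in the ratios was not tested.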
